A study of Mus musculus with 6 samples.

Results

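Mitochondrial RNA fragments are described here as the short reads that came from the 37 genes of the mouse mitochondrial chromosome, in small RNA libraries of bone marrow monocytes. The members were chosen by symbol, as every GENCODE gene whose symbol starts with mt-. They were 37 of the 6087 genes of the table, which also held all miRNA hairpins and other small RNA genes, and comprised 2 rRNA, 22 tRNA and 13 protein-coding genes. All 37 had reads, against 1200 genes with reads in the whole table. A read was counted for a member when it was 18 to 40 nt long, matched the gene exactly on the sense strand and matched no miRNA hairpin, and the 6 libraries held 90069 such reads. The cells were wild-type C57BL/6 bone marrow monocytes in culture, called BMMs (bone marrow monocytes/macrophages) in the study. Control cells received PBS and LPS cells received 5 pg/ml LPS, the endotoxin of gram-negative bacteria at a super-low dose, for 4 h, with 3 libraries in each group. Nothing says that the 3 libraries of a group came from separate cultures or mice, so p-values measure only the spread between these libraries, which may be technical. The labels name DMEM and the methods RPMI as the culture medium of both groups. Cells that hold fewer mitochondria, or less mitochondrial RNA per cell, cannot be told apart in such bulk samples.

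Mitochondrial DNA is transcribed on both strands into long precursor RNAs in which tRNAs lie between the rRNAs and mRNAs. The tRNAs are cut out at their 5′ ends by RNase P and at their 3′ ends by RNase Z. These cuts also free the rRNAs and mRNAs, and a nucleotidyltransferase then adds the bases CCA to each tRNA. The rRNAs build the mitochondrial ribosome, and the mRNAs encode core subunits of the respiratory chain and of ATP synthase. Macrophages that meet high doses of LPS are known to move from mitochondrial respiration towards glycolysis. A small RNA library ligates adaptors to short RNAs with a 5′ phosphate and a 3′ hydroxyl, so it records miRNAs together with short pieces of longer RNAs.

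The libraries held 2201520 to 17691405 reads, of which 54.5% to 63.7% matched miRNA hairpins and 0.204% to 0.380% matched mitochondrial genes. LPS replicate 2 stood apart, with 17691405 reads, and 18.6% of its distinct sequences were read once, against 67.1% to 74.6% in the other 5 libraries. The level differences of the gene classes are given with and without it. Most other values are given with it, and shares pooled over the libraries often weigh it most. Mir142 and Mir223, miRNA genes of blood cells, summed to 18048 to 23307 RPM (reads per 1000000 reads of the library) in every library, while hepatocyte markers reached at most 1.13, muscle markers 0.414, neuron markers 2.27 and epithelial markers 92.4 RPM. The epithelial markers were highest in LPS replicate 2, against 41.2 to 53.4 RPM elsewhere, and their part in the results was not tested. Of the mitochondrial reads, 2.74% also matched a transcript outside the mitochondrial genes and none matched a hairpin. The 2.74% was uneven over the genes, with 0.76% for mt-Rnr2 and 50.7% for mt-Co1.

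Summed over the 37 genes, mitochondrial reads stood at 3800, 2559 and 2709 RPM in control replicates 1 to 3 and at 3472, 2037 and 2521 in LPS replicates 1 to 3. Replicate 1 was the highest library in both groups, and the groups overlapped. The widest 95% counting interval (Wilson) of a library ran from 2456 to 2589 RPM, and such intervals cover counting error only. The log2 difference of LPS minus control was -0.19 (SE 0.29, exact permutation p = 0.5, two-sided, adjusted p = 0.8 over 4 levels tested, n = 3 per group), and 3 against 3 libraries cannot give a p below 0.1. Within the pairs of the same replicate number the differences were -0.13, -0.33 and -0.10, lower with LPS in each pair (SE of the pairs 0.071, exact sign-flip permutation p = 0.25, the smallest that 3 pairs can give). Without LPS replicate 2 the log2 difference was -0.01.

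Ribosomal RNA supplied most of the reads. The 2 rRNA genes summed to 3077, 2067 and 2000 RPM in the control libraries and to 2652, 1581 and 1895 in the LPS libraries (log2 difference -0.23, SE 0.30, exact permutation p = 0.5, adjusted p = 0.8). The difference was -0.06 without LPS replicate 2 and -0.03 without control replicate 1, and the pairs gave -0.21, -0.39 and -0.08. The 22 tRNA genes summed to 619, 364 and 627 in control and to 727, 342 and 553 in LPS (log2 difference -0.01, SE 0.41, exact permutation p = 1, adjusted p = 1). For the tRNA genes replicate 2 was the lowest library of both groups, and the sign of the difference turned without LPS replicate 2, to 0.28. The 13 mRNA genes summed to 104, 128 and 82.3 in control and to 93.2, 114 and 73.6 in LPS (log2 difference -0.16, SE 0.26, exact permutation p = 0.6, adjusted p = 0.8). Here the order of the replicates was the same in both groups, with number 2 the highest and number 3 the lowest. The pairs gave nearly equal differences of -0.15, -0.17 and -0.16 (SE of the pairs 0.0058), for which the exact sign-flip permutation test again gave its smallest p, 0.25. This SE comes from 3 values and does not measure counting error. The mRNA share of mitochondrial reads, 2.69% to 5.57% over the libraries, had a 95% counting interval (Wilson) of up to ± 0.54 percentage points. The near equality of the pairs is therefore not a sign of precision. The unpaired difference was -0.31 without LPS replicate 2, -0.0048 without control replicate 2 and -0.00043 without LPS replicate 3. The origin of many mRNA reads is uncertain. Of the reads of mt-Co1, the mRNA gene with the most, 50.7% also matched a transcript outside the mitochondrial genes. With all such reads left out, the mRNA difference was -0.19 (exact permutation p = 0.4). Per kilobase of gene, as mean RPM of exact reads over the 6 libraries, the rRNA genes stood at 872, the tRNA genes at 359 and the mRNA genes at 8.68.

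**Figure D1:**
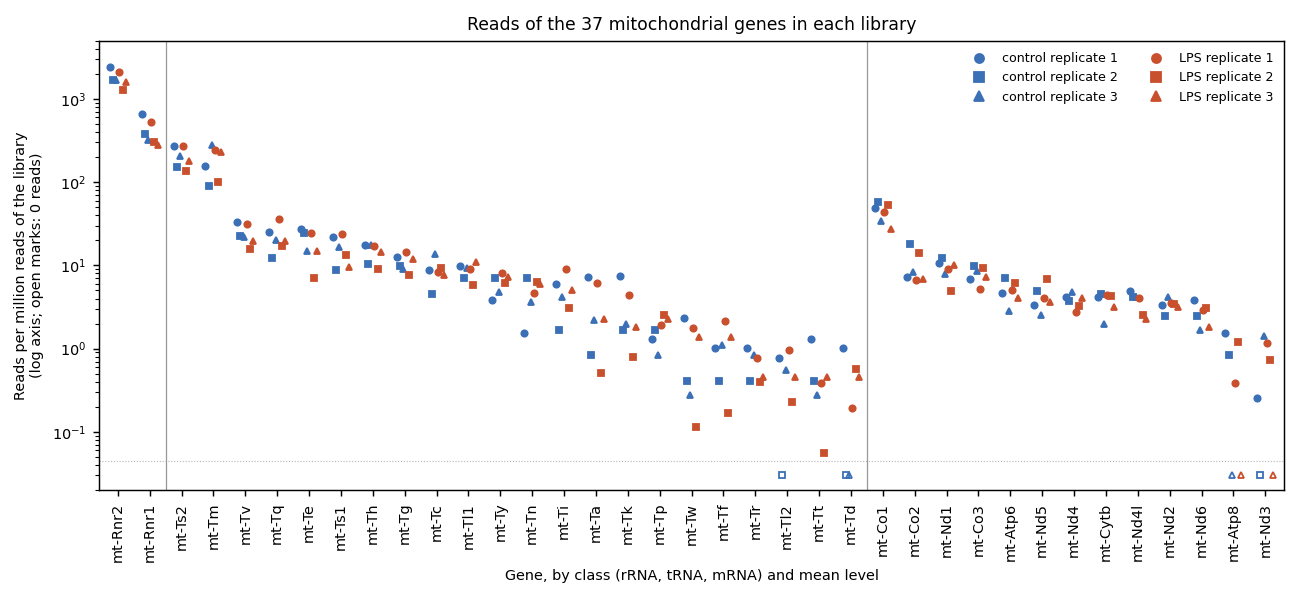
RPM (vertical, log axis) for each of the 37 mitochondrial genes, grouped as rRNA, tRNA and mRNA genes and ordered by mean level; blue marks are control and orange marks LPS libraries, the mark shape gives the replicate number, and open marks below the dotted line are libraries with 0 reads. The control and LPS marks of a gene lie among each other in nearly every column, and the exceptions are mt-Nd4l, whose 3 LPS libraries all lie below its 3 control libraries, and mt-Tp, whose 3 LPS libraries all lie above them. Only reads that match a gene exactly are counted. Reads of mt-Tp with added C, CC or CCA overlapped between the groups.

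The 16S rRNA gene mt-Rnr2 (ENSMUSG00000064339.1, GRCm38 chrM:1094-2675, plus strand) alone gave 62.8% of all mitochondrial reads. It stood at 2414, 1689 and 1675 RPM in control and at 2122, 1278 and 1613 in LPS libraries. Replicate 1 was the highest and LPS replicate 2 the lowest, and the groups overlapped (edgeR log2 fold change -0.12, SE 0.22, adjusted p = 0.993). Much of this signal was a set of pieces with 1 shared start: 47.4% of the mt-Rnr2 reads began at base 1 of the gene. The 3 most read of these pieces are printed because they were the most read mitochondrial sequences, and they differ only in where they end.
mt-Rnr2 bases 1 to 21 (chrM:1094-1114): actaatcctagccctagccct
mt-Rnr2 bases 1 to 24 (chrM:1094-1117): actaatcctagccctagccctaca
mt-Rnr2 bases 1 to 25 (chrM:1094-1118): actaatcctagccctagccctacac

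The 21-nt piece made up 11.9% of mt-Rnr2 reads (mean of 6 libraries, range 9.82% to 14.2%), the 24-nt piece 10.7% (9.12% to 13.1%) and the 25-nt piece 7.78% (4.05% to 11.7%). Each was found in every library. The 21-nt piece stood at 247, 195 and 237 RPM in control and at 208, 161 and 210 in LPS. The 25-nt piece stood at 104, 142 and 153 in control and at 85.9, 149 and 147 in LPS, so replicate 1, the highest library of each group for mt-Rnr2 as a whole, was the lowest for the 25-nt piece. All reads with this start together gave 934, 722.5 and 850 RPM in control (835 ± 107, SD) and 814, 706 and 784 in LPS (768 ± 55.8), a narrower relative spread than that of the whole gene (control 1926 ± 422, LPS 1671 ± 425, SD, n = 3 each). The share of mt-Rnr2 reads that began at base 1 was 38.7%, 42.8% and 50.7% in control and 38.4%, 55.2% and 48.6% in LPS libraries. It was lowest in replicate 1 of both groups.

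Away from the start, mt-Rnr2 reads covered 99.5% of the gene at a far lower depth, with a median base at 10.5 RPM against 803 at base 14, the deepest. The next peak lay between bases 701 and 750, where many reads ended at base 743. The most read of these pieces, 33 nt long, is shown because a single library nearly lacked it; it was chosen after its values were seen.
mt-Rnr2 bases 711 to 743 (chrM:1804-1836): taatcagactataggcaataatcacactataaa

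This piece stood at 39.4, 30.2 and 35.3 RPM in control and at 35.5, 0.961 and 40.4 in LPS libraries. LPS replicate 2 held almost none of it, while the other 5 libraries lay close together. Reads that ended at base 743 showed the same, with 122, 102 and 113 RPM in control and 111, 4.75 and 133 in LPS. The 5′ pieces of the same gene did not have this gap: reads beginning at base 1 were at 706 RPM in LPS replicate 2. The lower mt-Rnr2 level in that library was uneven along the gene, and its mean coverage over bases 701 to 750 was 11.3 RPM against 123 to 161 in the others.

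**Figure D2:**
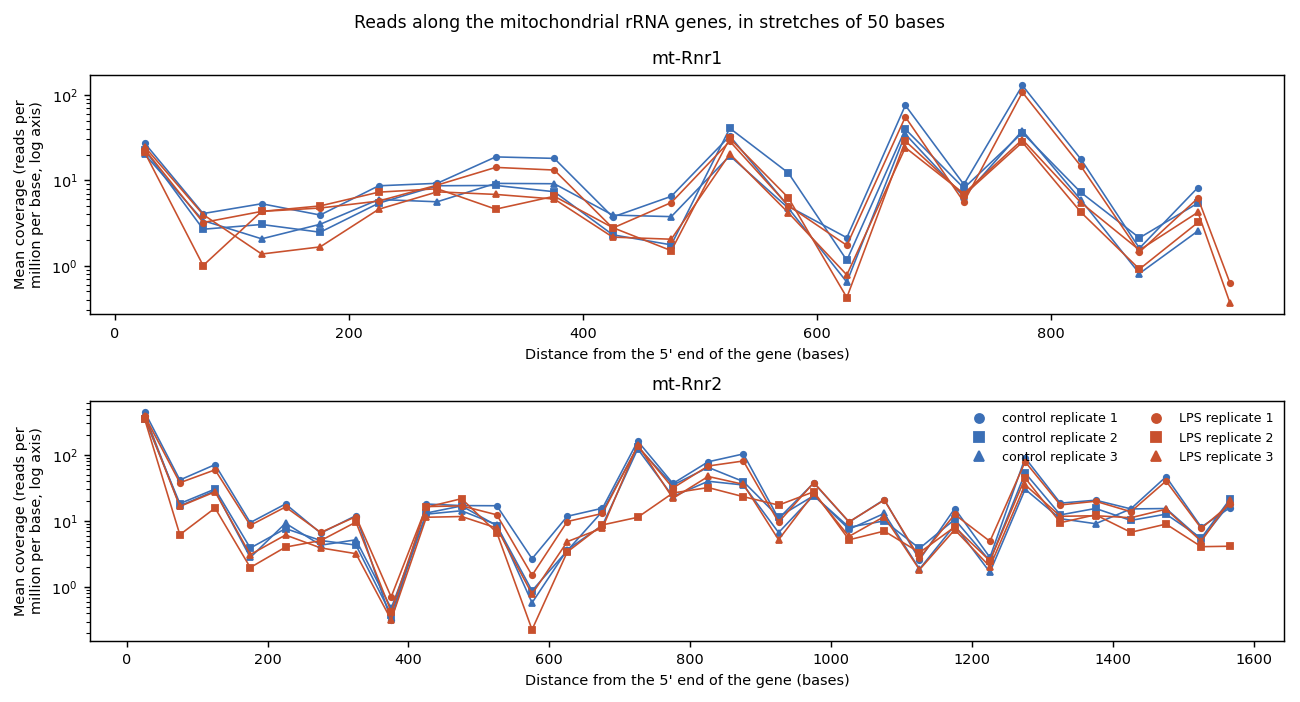
Mean coverage in RPM per base (vertical, log axis) in stretches of 50 bases, against the distance from the 5′ end of mt-Rnr1 and mt-Rnr2; each line is a library, blue for control and orange for LPS, with the mark shape giving the replicate number. The first stretch of mt-Rnr2 is the highest in every library (348 to 448 RPM), LPS replicate 2 lies alone at 11.3 over bases 701 to 750, and replicate 1 of both groups lies above the rest over bases 751 to 800 of mt-Rnr1.

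The 12S rRNA gene mt-Rnr1 (ENSMUSG00000064337.1, chrM:70-1024, plus strand) stood at 663, 378 and 325 RPM in control and at 530, 303 and 282 in LPS libraries. Replicate 1 was again the highest of each group (edgeR log2 fold change -0.19, SE 0.34, adjusted p = 0.993). Base 1 was its most used start too, but with 10.9% of its reads, and the leading piece is printed with its start at the gene's first base.
mt-Rnr1 bases 1 to 37 (chrM:70-106): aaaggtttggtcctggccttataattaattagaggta

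Reads with that start stood at 45.9, 39.7 and 37.8 RPM in control and at 40.2, 41.8 and 44.5 in LPS libraries. They were nearly level over all 6 libraries (control 41.1 ± 4.2, LPS 42.2 ± 2.2, SD, n = 3 each). The inner pieces were not: mean coverage of bases 751 to 800 was 129 and 107 RPM in replicate 1 of control and LPS, against 27.8 to 38.1 in the other 4 libraries. Not every inner stretch showed this. Over bases 501 to 550 replicate 2 was the highest of each group, at 33.0, 40.6 and 19.3 RPM in control and 28.6, 30.9 and 20.3 in LPS. At the start of the gene the 6 libraries lay between 37.8 and 45.9 RPM. Over bases 751 to 800 replicate 1 of both groups stood above the others. The same libraries were the highest for snoRNA genes, summed over the class (34636 and 31454 RPM against 12306 to 20560), and for reads antisense to mitochondrial genes (93.3 and 87.6 against 24.3 to 31.6); the part of this in the mt-Rnr1 values was not tested.

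The length of the reads that matched a gene exactly differed between the classes. Reads of rRNA genes were most often 21 nt or 24 nt long, with 11.8% at 21 nt (9.70% to 14.2%) and 10.9% at 24 nt (9.58% to 12.5%), and their most frequent length was 21 nt in 4 libraries and 24 nt in LPS replicates 1 and 2. Reads of tRNA genes peaked at 31 nt in each of the 6 libraries, with 25.7% of the class (19.7% to 33.8%) and a lower peak at 26 nt (12.6%). Reads of mRNA genes had no leading length, and their most frequent length differed between libraries, from 22 to 28 nt. Single pieces supplied much of the peaks of the other classes. Over all libraries, mt-Rnr2 bases 1 to 21 and 1 to 24 had 6664 and 6375 of the 56522 mt-Rnr2 reads. Of the 16536 exact tRNA reads, mt-Tm bases 1 to 31 had 3587 and mt-Ts2 bases 1 to 26 had 1922.

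**Figure D3:**
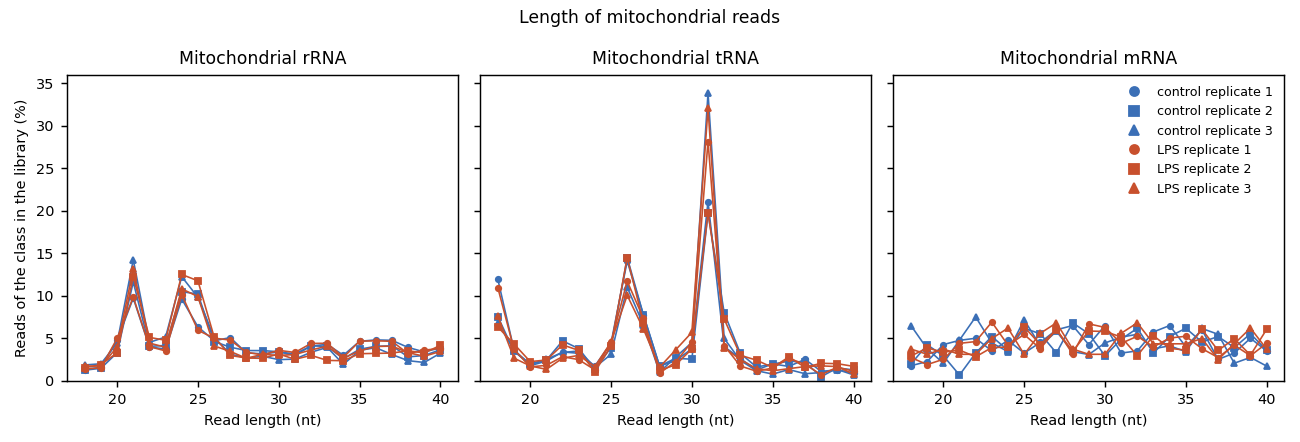
Share of the reads of each class (vertical, % of the reads of the class in the library) by read length in nt, for rRNA, tRNA and mRNA genes; each line is a library, blue for control and orange for LPS, with the mark shape giving the replicate number. The rRNA lines peak at 21 and 24 nt and the tRNA lines at 31 nt (19.7% to 33.8%) in every library, while the mRNA lines have no shared peak. Only reads that match a gene exactly are counted.

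Among the exact reads of tRNA genes, mt-Ts2 and mt-Tm held the most. The gene mt-Ts2 (ENSMUSG00000064365.1, chrM:11613-11671, plus strand) encodes the serine tRNA that lacks a D arm. It stood at 269, 152 and 205 RPM in control and at 274, 135 and 182 in LPS libraries, the same order of replicates in both groups (edgeR log2 fold change -0.01, SE 0.31, adjusted p = 0.993). Of its reads 96.6% began at base 1. Its leading pieces are printed in capitals within the whole gene.
mt-Ts2 bases 1 to 26 (chrM:11613-11638): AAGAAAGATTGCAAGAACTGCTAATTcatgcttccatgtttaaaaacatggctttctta
mt-Ts2 bases 1 to 18 (chrM:11613-11630): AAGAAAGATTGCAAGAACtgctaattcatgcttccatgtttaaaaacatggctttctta

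The 26-nt piece made up 29.96% of mt-Ts2 reads (28.3% to 32.0%) and stood at 79.1, 48.4 and 61.3 RPM in control and at 77.7, 43.3 and 51.3 in LPS. The 18-nt piece, at the shortest length counted, stood at 63.4, 22.4 and 26.3 in control and at 65.3, 15.9 and 31.8 in LPS. Replicate 1 was the highest for both pieces in both groups, and by a wider margin for the shorter piece. The anticodon of mt-Ts2 was found at bases 20 to 22, so the 18-nt piece stopped before it and the 26-nt piece passed it.

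The methionine tRNA gene mt-Tm (ENSMUSG00000064344.1, chrM:3845-3913, plus strand) stood at 158, 89.8 and 278 RPM in control and at 246, 101 and 233 in LPS libraries. Replicate 2 was the lowest of each group, and the groups overlapped (edgeR log2 fold change 0.18, SE 0.46, adjusted p = 0.993). A single piece led in every library, and it is printed in capitals because its end falls in the anticodon.
mt-Tm bases 1 to 31 (chrM:3845-3875): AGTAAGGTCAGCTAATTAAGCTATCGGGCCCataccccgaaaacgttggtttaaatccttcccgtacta

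It made up 67.2% of mt-Tm reads (56.2% to 74.7%), at 112, 55.1 and 200 RPM in control and at 184, 56.9 and 161 in LPS. The anticodon lies at bases 31 to 33, so the piece ended on its first base. Of the mt-Tm reads that began within 3 bases of the 5′ end, 98.2% ended within the anticodon loop. In mt-Ty, the tyrosine tRNA, 96.7% of 180 such reads did so, and in mt-Tc, the cysteine tRNA, 78.0% of 100 did. Not all 5′ pieces were of this kind: the share was 35.1% in mt-Ts2, 55.2% in mt-Tq and 0.77% in mt-Ts1.

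The tRNAs mt-Tq and mt-Ts1 also gave mainly 5′ pieces. The glutamine tRNA gene mt-Tq (ENSMUSG00000064343.1, chrM:3772-3842, minus strand) stood at 25.5, 12.4 and 20.4 RPM in control and at 36.3, 16.9 and 19.5 in LPS libraries (edgeR log2 fold change 0.39, SE 0.37, adjusted p = 0.993), and 81.1% of its reads began at base 1. The other serine tRNA gene, mt-Ts1 (ENSMUSG00000064352.1, chrM:6870-6938, minus strand), stood at 22.2, 8.69 and 16.8 in control and at 24.1, 13.5 and 9.54 in LPS (log2 fold change 0.09, SE 0.44, adjusted p = 0.993, edgeR), with 92.4% at base 1. Replicate 1 was the highest library of each group for both genes. The anticodon was found at bases 31 to 33 of mt-Ts1 and at bases 33 to 35 of mt-Tq, so the leading mt-Ts1 piece stopped before it and the leading mt-Tq piece passed it; both are printed for this.
mt-Ts1 bases 1 to 23 (chrM:6916-6938): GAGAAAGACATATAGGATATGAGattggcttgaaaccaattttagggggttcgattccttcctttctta
mt-Tq bases 1 to 36 (chrM:3807-3842): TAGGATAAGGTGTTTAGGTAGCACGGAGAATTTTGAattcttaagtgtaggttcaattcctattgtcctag

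The exact match to the gene leaves out tRNA ends that carry the added CCA, since these bases are not in the gene. Reads that continued past the last base of a tRNA gene into C, CC or CCA were counted apart, and there were 11059 of them, next to 16536 exact tRNA reads. The whole CCA was present in 81.1%, as in mature tRNAs. They stood at 440, 549 and 441 RPM in control and at 436, 176 and 492 in LPS libraries. LPS replicate 2 was the lowest by far, and the log2 difference of -0.50 (exact permutation p = 0.4, n = 3 per group) was -0.03 without that library. Among exact reads, pieces from the 3′ end made up 4.55% to 10.6% of tRNA reads over the libraries and pieces from the 5′ end 72.9% to 81.5%. With the CCA reads counted, the 3′ pieces made up 37.8% to 64.4% and the 5′ pieces 29.02% to 50.9%.

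Most tRNA genes gave their reads mainly from either end. With the CCA reads counted, over 50% of the reads came from the 5′ end in 6 of the 22 genes (mt-Ti, mt-Tq, mt-Tm, mt-Ty, mt-Ts1 and mt-Ts2) and from the 3′ end in 10 (mt-Tf, mt-Tv, mt-Tw, mt-Tn, mt-Tk, mt-Tg, mt-Th, mt-Te, mt-Tt and mt-Tp). The remaining 6 reached 50% at neither end. From exact reads alone, mt-Tg and mt-Te would be the only genes past 50% at the 3′ end. In 9 genes the CCA reads outnumbered the exact ones.

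**Figure D4:**
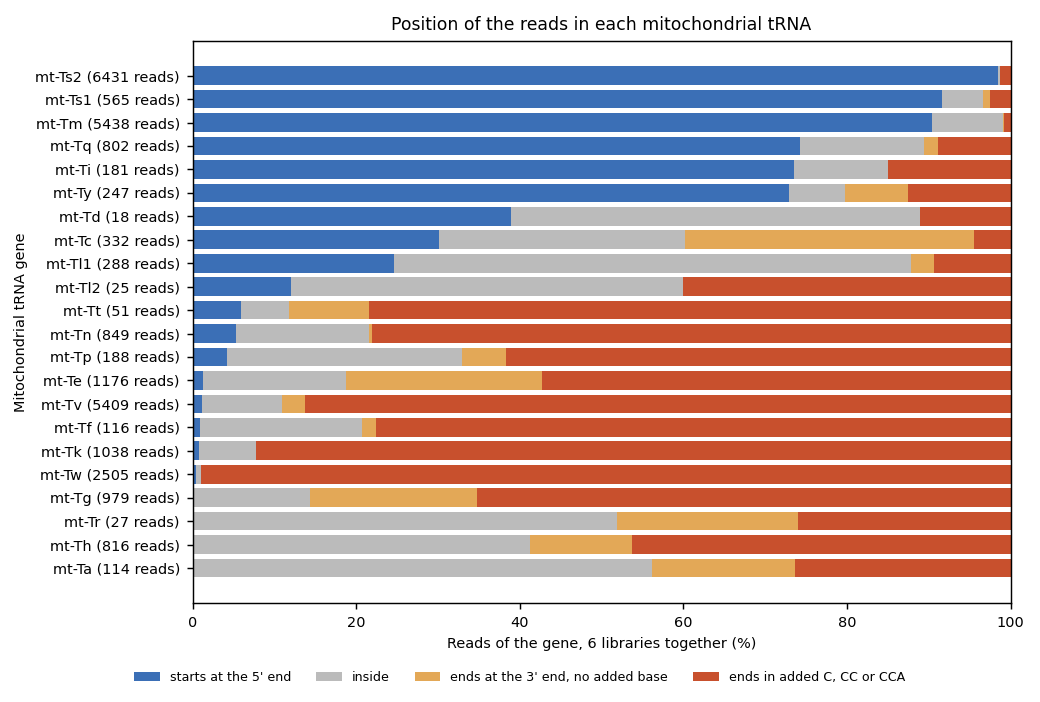
Share of the reads of each of the 22 mitochondrial tRNA genes (horizontal, %, exact and CCA reads of the 6 libraries together) that started within 3 bases of the 5′ end, lay inside, ended within 3 bases of the 3′ end with no added base, or ended in added C, CC or CCA; the number of reads stands beside each gene. The bars of 6 genes, such as mt-Ts2, are mostly blue, those of others, such as mt-Tw with 2480 CCA reads, mostly orange, and 6 genes, such as mt-Tl1 and mt-Tc, pass 50% at neither end.

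The valine and tryptophan tRNAs had the most CCA reads. For mt-Tv (ENSMUSG00000064338.1, chrM:1025-1093, plus strand), which lies between the rRNA genes, 4664 CCA reads stood against 745 exact reads. The exact reads stood at 33.5, 22.4 and 21.8 RPM in control and at 31.9, 15.6 and 19.5 in LPS (edgeR log2 fold change -0.13, SE 0.32, adjusted p = 0.993). The CCA reads stood at 180, 177 and 151 in control and at 187, 91.5 and 188 in LPS, with LPS replicate 2 the lowest. For mt-Tw there were 25 exact reads and 2480 CCA reads, at 120, 161 and 130 RPM in control and at 113, 16.1 and 136 in LPS. LPS replicate 2 again held far fewer than the other 5 libraries. In the printed pieces the capitals mark the read, including the added CCA.
mt-Tv bases 51 to 69 and CCA (chrM:1075-1093): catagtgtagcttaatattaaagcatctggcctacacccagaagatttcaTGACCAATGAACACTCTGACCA
mt-Tw bases 50 to 67 and CCA (chrM:4999-5016): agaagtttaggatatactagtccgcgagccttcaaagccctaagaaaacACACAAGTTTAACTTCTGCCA
mt-Tn bases 39 to 71 and CCA (chrM:5089-5121): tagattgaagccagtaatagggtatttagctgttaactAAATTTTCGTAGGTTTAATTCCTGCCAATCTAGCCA

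The mt-Tw piece stood at 28.1, 41.8 and 30.8 RPM in control and at 34.2, 3.22 and 22.3 in LPS. In mt-Tn, the asparagine tRNA, CCA reads stood at 33.0, 48.4 and 40.3 in control and at 30.9, 2.37 and 33.2 in LPS, so the gap in LPS replicate 2 was present there too. The gap was not general to CCA reads: the printed mt-Tv piece stood at 16.7, 13.7 and 14.3 in control and at 15.2, 16.7 and 15.9 in LPS, level with the others in LPS replicate 2. CCA reads of mt-Th, the histidine tRNA, stood at 5.93, 14.5 and 9.80 in control and at 10.5, 11.5 and 12.3 in LPS, again with no gap.

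The other tRNA genes given singly, mt-Te, mt-Th and mt-Tg, leaned to the 3′ side. The glutamate tRNA gene mt-Te (ENSMUSG00000064369.1, chrM:14071-14139, minus strand) stood at 27.6, 24.4 and 14.8 RPM in control and at 24.3, 7.12 and 14.99 in LPS (edgeR log2 fold change -0.49, SE 0.43, adjusted p = 0.993), the lowest fitted value of the 26 genes tested, with groups that overlapped. The histidine tRNA gene mt-Th (ENSMUSG00000064364.1, chrM:11546-11612, plus strand) stood at 17.5, 10.4 and 17.4 in control and at 17.3, 9.16 and 14.5 in LPS (log2 fold change -0.08, SE 0.32, adjusted p = 0.993, edgeR). The glycine tRNA gene mt-Tg (ENSMUSG00000064359.1, chrM:9391-9458, plus strand) stood at 12.6, 9.94 and 8.96 in control and at 14.6, 7.57 and 11.8 in LPS (log2 fold change 0.17, SE 0.29, adjusted p = 0.993, edgeR). Replicate 2 was the lowest LPS library for all 3 genes. Without 1 library the fold change of mt-Te ran from -0.92 to -0.18. The leading exact mt-Te piece, bases 39 to 69, had 0 reads in LPS replicate 2 and 3.92 to 9.79 RPM elsewhere. With CCA added, the same piece stood at 2.43 RPM in that library, against 4.08 to 8.25 elsewhere. The part of this gap in the mt-Te fold change was not tested. In exact reads the other 14 tRNA genes had means of 0.374 to 8.72 RPM. Several of these had more CCA reads than exact reads, such as mt-Tw (2480 against 25) and mt-Tk (957 against 81). Among the 37 genes, 4 had a library with 0 reads: mt-Td in control replicates 2 and 3, mt-Tl2 in control replicate 2, mt-Nd3 in control replicate 2 and LPS replicate 3, and mt-Atp8 in control replicate 3 and LPS replicate 3. A count of 0 allows up to 1.24, 0.840 and 1.36 RPM in control replicates 2 and 3 and LPS replicate 3. Per kilobase of gene, in exact reads only, mt-Ts2 stood at 3438 and mt-Tm at 2675 RPM. These were above mt-Rnr2 at 1137 and mt-Rnr1 at 433, with mt-Td the lowest tRNA gene at 5.34. This order leaves out the CCA reads, of which mt-Tv had 4664 and mt-Tw 2480.

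The mRNA genes were sparse. The gene mt-Co1 (ENSMUSG00000064351.1, chrM:5328-6872, plus strand), for the largest subunit of cytochrome c oxidase, had the most reads of the mRNA genes in every library and, at 28.5 RPM per kilobase, also per length. It stood at 48.4, 57.1 and 33.9 RPM in control and at 44.1, 53.6 and 27.3 in LPS (edgeR log2 fold change 0.00, SE 0.40, adjusted p = 0.997). Replicate 2 was the highest and replicate 3 the lowest of each group. Its reads covered 92.8% of the gene, with 0.06% at base 1. They were denser over bases 851 to 900, where mean coverage was 12.9, 3.64 and 4.20 RPM in control and 9.29, 3.36 and 2.53 in LPS, highest in replicate 1 of both groups. The most used start, base 875, took 0.21% to 14.4% of the mt-Co1 reads of a library, with the highest share in control replicate 1. Cytochrome c oxidase subunit genes mt-Co2 (ENSMUSG00000064354.1, chrM:7013-7696, plus strand) and mt-Co3 (ENSMUSG00000064358.1, chrM:8607-9390, plus strand) were lower. The mt-Co2 reads stood at 7.21, 18.2 and 8.40 in control and at 6.60, 14.2 and 6.81 in LPS (log2 fold change -0.06, SE 0.55, adjusted p = 0.993, edgeR). The mt-Co3 reads stood at 6.96, 9.94 and 8.68 in control and at 5.24, 9.38 and 7.27 in LPS (log2 fold change -0.05, SE 0.40, adjusted p = 0.993, edgeR). Replicate 2 was the highest of each group for both. All reads of mt-Co2, mt-Co3, mt-Atp6 and mt-Nd4l and 50.7% of those of mt-Co1 also matched a transcript outside the mitochondrial genes, so their origin is uncertain. The same held for 88% of the reads of mt-Nd3, 79.7% of mt-Nd4, 22.3% of mt-Cytb and 15.1% of mt-Nd5. It held for 4.17% of the reads of mt-Nd2 and 0.99% of mt-Nd6.

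The complex I gene mt-Nd1 (ENSMUSG00000064341.1, chrM:2751-3707, plus strand) stood at 10.8, 12.4 and 7.84 RPM in control and at 8.94, 4.86 and 9.99 in LPS (edgeR log2 fold change -0.34, SE 0.33, adjusted p = 0.993). Its reads matched no other transcript. Base 1 was its most used start, with 18.9% of 254 reads, and reads with this start stood at 1.29, 6.62 and 1.68 RPM in control and at 0.971, 0.791 and 0.908 in LPS, so control replicate 2 stood above all others. The most used start was base 1 in mt-Nd2 (16.7% of 120 reads), mt-Atp8 (83.9% of 31) and mt-Nd4l (59.1% of 115) as well, and, in exact reads, in 12 tRNA and both rRNA genes. Some of the 12 had few such reads, with 3 each in mt-Tl2 and mt-Tt. The CCA reads are left out here. In mt-Tw 1 CCA piece from base 50 had 602 reads against 9 exact reads at base 1. In mt-Tn 1 CCA piece from base 39 had 230 against 45. LPS replicate 2 supplied 61 of the mt-Nd2 reads and 21 of the mt-Atp8 reads. Reads across a border between genes that abut or overlap, with at least 3 bases in each, numbered 85 in all 6 libraries. Of these, 44 joined mt-Tv to mt-Rnr2 and 37 joined mt-Rnr2 to mt-Tl1. Borders with bases between the genes could not be searched. The other 9 mRNA genes had means of 0.593 to 4.95 RPM.

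In the test of LPS against control, 26 of the 37 genes passed the filter on low counts, 2 rRNA, 13 tRNA and 11 mRNA genes. With p-values from the edgeR quasi-likelihood fit, adjusted by Benjamini-Hochberg over all 476 genes tested, none of the 26 passed 0.05: 0 rose and 0 fell in LPS libraries, against 0% of all genes tested in either direction. At an unadjusted p under 0.05, 0 of the 26 passed, against 8 of all 476 genes, and DESeq2 likewise called 0 of the 26. The smallest adjusted p over all genes was 0.993. Of the 26 fitted log2 fold changes 14 were above and 12 below 0, with a median of 0.03 against -0.01 over all genes tested, and they ran from -0.49 for mt-Te to 0.69 for mt-Nd5 (SE 0.47). For none of the 26 was the difference larger than the spread between libraries by this test. In RPM the 3 LPS libraries lay above the 3 control libraries in 0 of the 26 genes, against 1.89% of all genes tested, and below them in 1, against 3.78%. That gene was mt-Nd4l, for a small complex I subunit, at 4.90, 4.14 and 4.20 in control and at 4.08, 2.54 and 2.27 in LPS (log2 fold change -0.44, SE 0.33, adjusted p = 0.993, edgeR). It had 5 to 45 reads in a library, and all of them also matched a transcript outside the mitochondrial genes. This gene is named after its values were seen. Among the 11 genes that did not pass the filter and were not tested was the proline tRNA gene mt-Tp, with 72 exact reads in all. These stood at 1.29, 1.66 and 0.840 RPM in control and at 1.94, 2.54 and 2.27 in LPS, without overlap. Its 116 CCA reads did overlap, at 2.06, 4.14 and 3.92 RPM in control and at 3.11, 3.56 and 2.27 in LPS. The share of genes without overlap was counted only over the genes tested. The gene mt-Tp too is named after its values were seen.

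**Figure D5:**
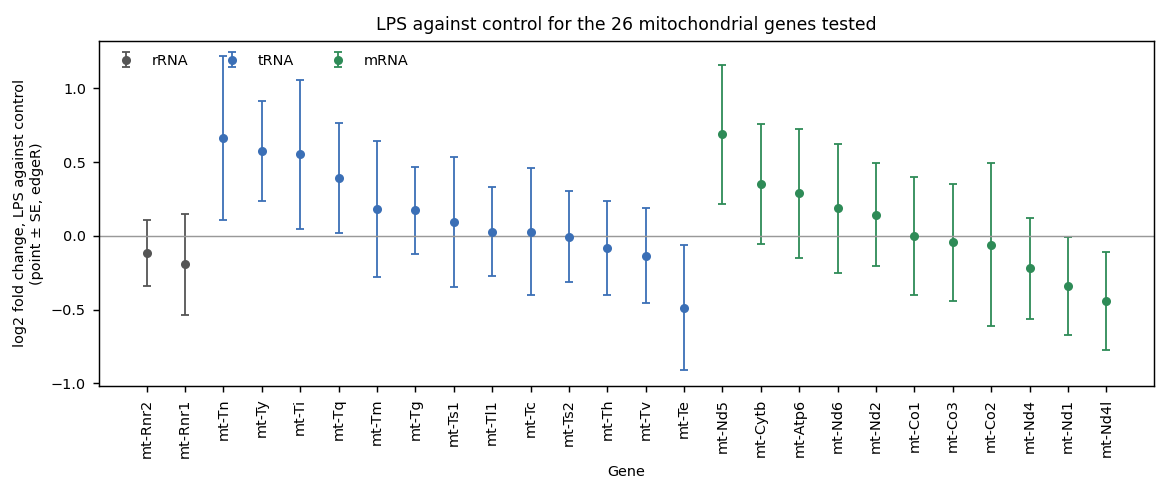
Fitted log2 fold change of LPS against control (vertical, point ± SE, edgeR) for the 26 mitochondrial genes tested, grouped as rRNA, tRNA and mRNA genes and ordered within each group. The SE was derived from the F statistic of each test. The points run from -0.49 (mt-Te) to 0.69 (mt-Nd5) on both sides of 0, and none had an adjusted p below 0.993.

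The make-up of the mitochondrial reads was compared between the groups by 9 shares. Ribosomal RNA made up 81.0%, 80.8% and 73.8% of mitochondrial reads in control and 76.4%, 77.6% and 75.2% in LPS libraries, and control replicate 3 was the lowest. Transfer RNA made up 16.3%, 14.2% and 23.1% in control and 20.9%, 16.8% and 21.9% in LPS. In the tRNA genes, 3′ pieces of exact reads made up 6.86%, 10.6% and 4.55% in control and 5.19%, 5.68% and 4.85% in LPS. The LPS values of these 3 shares lay within the range of the control values. For reads of 30 to 40 nt the shares were 43.0%, 39.7% and 37.3% in control and 44.2%, 36.99% and 41.3% in LPS. No share differed between the groups beyond the spread of the libraries: exact permutation p ran from 0.4 to 0.9, adjusted p was 0.9 for each of the 9 shares, and 3 against 3 libraries allow no p below 0.1. The widest 95% interval of a share (Wilson) was ± 2.94 percentage points, for 5′ pieces of tRNA genes.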

How the data were processed

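The authors deposited, for each of the 6 libraries (Illumina TruSeq small RNA, HiSeq), raw counts of each distinct read sequence after adaptor trimming and quality checks with perl scripts and Btrim64; the counts are not normalized and carry no gene names or positions. Per the labels the build was mm9, but the files hold no coordinates. Reads of 18 to 40 nt (files start at 11 nt) were matched exactly, on the sense strand, to GENCODE vM21 transcripts (GRCm38), whose chrM positions are given. A read went to a miRNA hairpin first, then to a mitochondrial gene, then to another small RNA gene, and among several genes to the one with most reads matching it alone. No nuclear genome was searched. Levels are RPM, reads per 1000000 reads of the library. A piece was called 5′ or 3′ within 3 bases of that end; an anticodon was placed where 4 of 5 stem pairs enclose a 7-base loop around the codon's complement.

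Counts were fitted with edgeR 4.0.16 (limma 3.58.1, R 4.3.3) by quasi-likelihood with TMM and filterByExpr, threshold 0.05, common dispersion 0.146; DESeq2 1.42.0 was an alternative. Levels and shares were tested by exact two-sided permutation (scipy 1.17.1, Python 3.11.15). Scripts were tested on simulated data. Libraries of the same replicate number tended to deviate together, clearest for number 1, and were taken as pairs. Deviations from the group means over 476 genes correlated at 0.68, 0.27 and 0.36 within numbers and at -0.44 to 0.14 between them. Deviations within a group sum to 0, so a high value within a number lowers those between numbers, and the contrast is partly built in. The labels do not say why same-numbered libraries would deviate together. Values in every library are given for both rRNA genes, the 8 tRNA and 4 mRNA genes of highest mean level and any gene under the threshold, and mt-Nd4l and the CCA reads were added. The members and lists were chosen with earlier results of these data known. Alternatives were other scalings, filters, matching rules, tools, the replicate block and leaving out each library.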

Additional observations from a re-analysis of the deposited data

How the results depend on the processing

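Fitting without each library in turn, with a replicate block, with DESeq2 or limma-voom, with 3 other scalings, with 2 other filters on low counts or with 5 other rules for matching reads called 0 mitochondrial genes in either direction, as did leaving out sequences read once and the block without number 2, both chosen after seeing the data. Of the matching rules, keeping reads that match a hairpin repeated the main fit, since no mitochondrial read matched one. The smallest adjusted p of a mitochondrial gene over all these edgeR, DESeq2 and limma-voom fits was 0.512, in the block without number 2. The replicate block gave 0 mitochondrial genes, with a smallest adjusted p of 0.762, and changed no call. Without a filter on low counts 5 genes, none mitochondrial, were higher with LPS, against 0 with it. A fit to the 37 genes alone was not run. Levels compared within pairs could not reach the threshold, since 3 pairs allow no p below 0.25. No level, share or gene passed its test, so what follows is the sign of values that did not pass a test, and the causes were not tested. Leaving out sequences read once cut the libraries unequally. It removed 1.62% of mitochondrial reads from LPS replicate 2 and 14.7% to 27.8% from the others. The log2 difference of tRNA genes turned to 0.067 without sequences read once, 0.00054 when scaled to reads of 18 to 40 nt and 0.082 when scaled to hairpin reads; that of mRNA genes turned to 0.60 without sequences read once. Leaving out 1 library gave -0.27 to 0.28 for tRNA genes, above 0 without control replicate 1 or 3 (0.11, 0.12) or LPS replicate 2. Shares turned, in percentage points, to -0.13 for tRNA, 0.0038 for 24 to 29 nt and 1.12 for inner tRNA pieces with CCA reads counted, to -0.91 for 5′ and 2.41 for inner pieces without sequences read once, and to 1.28 for inner pieces by distinct sequences. Without 1 library the differences ran from -0.79 to 0.84 for mRNA, -1.18 to 1.07 for 18 to 23 nt, -1.74 to 0.57 for 24 to 29 nt, -0.85 to 2.75 for 30 to 40 nt and -1.59 to 0.43 for inner pieces. Log2 fold changes turned as follows. Without sequences read once they were 0.022 for mt-Rnr1, 0.33 for mt-Tv, 1.40 for mt-Co1 and 0.52 for mt-Th. In the block without number 2 they were 0.013 for mt-Nd1 and -0.16 for mt-Ts1. For mt-Co1 they were 0.018 with reads of at least 20 nt, 0.022 with RLE scaling, 0.024 with DESeq2, 0.019 with at least 10 reads in every library and 0.071 with no filter. For mt-Ts2 they were 0.0058 with 1 mismatch allowed, 0.0077 with at least 10 reads, 0.0050 with RLE scaling, 0.0046 with DESeq2 and 0.063 with no filter. With no filter mt-Co2 was at 0.0063 and mt-Co3 at 0.015, with library totals mt-Ts1 at -0.014, and with CCA reads mt-Tg at -0.0058 and mt-Th at 0.0799. Without 1 library the fold changes ran from -0.43 to 0.13 for mt-Rnr1, -0.24 to 0.032 for mt-Rnr2, -0.39 to 0.048 for mt-Tv, -0.13 to 0.78 for mt-Tm, -0.21 to 0.36 for mt-Ts1, -0.27 to 0.11 for mt-Th, -0.23 to 0.17 for mt-Ts2, -0.40 to 0.27 for mt-Co1, -0.76 to 0.48 for mt-Co2 and -0.50 to 0.22 for mt-Co3. Depth limits the low genes: a count of 0 allows up to 1.36 RPM in the shallowest library.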
